A study of Homo sapiens with 18 samples.

Results

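The 10 genes below were chosen for their large rises after treatment of 2 cultured cell lines with YKL-5-124, a covalent inhibitor of the kinase CDK7, and are described here across both lines and both doses. They are KRCC1, HCG17, NRN1L, SMIM14, CCDC92, SDCBP2, MEIG1, TMEM129, ZNF580 and UCN, 10 of the 26249 genes measured, and all 10 passed the filter on low values. The lines carry the labels XG1 and AMO1, both said to be multiple myeloma, a cancer of plasma cells. Each line was given the solvent DMSO, 100 nM YKL-5-124 or 1000 nM YKL-5-124 for 6 h, with 3 libraries in each of the 6 groups (18 libraries). No genetic alteration is named in the labels, and by the labels the groups of a line differ only in the agent and its dose. The labels do not say that the 3 libraries of a group came from separate cultures, and if they are technical repeats the p-values reflect technical spread alone.

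CDK7 is the kinase of the CDK-activating complex, which it forms with cyclin H and MNAT1. As part of the general transcription factor TFIIH it phosphorylates the tail of RNA polymerase II at promoters, and outside TFIIH the complex activates the CDKs of the cell cycle. Inhibitors of this kinase are studied in cancers that depend on high transcription. The 10 genes have unrelated known functions. NRN1L and UCN encode secreted or membrane-tethered proteins, SMIM14 and TMEM129 encode proteins of internal membranes, CCDC92, SDCBP2 and MEIG1 encode cytoskeletal or scaffold proteins, ZNF580 encodes a zinc finger protein, KRCC1 encodes a little-studied lysine-rich coiled-coil protein, and HCG17 is a noncoding RNA gene of the HLA complex.

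The rule took the largest rises in either line, so the genes were chosen by their log2 change against DMSO in these same libraries. Within each line the genes were ranked by their change among those that passed the threshold with all 3 treated libraries above all 3 DMSO libraries. By rank among the 10 largest rises of a dose, KRCC1, HCG17, NRN1L, CCDC92, SDCBP2 and MEIG1 (6 genes) were chosen in XG1, TMEM129, ZNF580 and UCN (3 genes) in AMO1, and SMIM14 (1 gene) in both. A gene's change in the line that chose it is therefore given as a description with no test, and a test is given only in the other line. SMIM14 has no such line and gets no test. The 10 genes are not simply the largest rises, since other genes changed as much or more. AGBL5-AS1 was higher in XG1 at 1000 nM by 2.70 on the log2 scale and ZEB2-AS1 at 100 nM by 1.93, while GDF15 was higher in AMO1 at 1000 nM by 2.94, HIST2H2BE by 2.68 and LAMB2P1 by 1.89. Among the genes chosen, the poorest best rank was 6 in XG1, for MEIG1 with 2.03 at 100 nM, and 6 in AMO1, for TMEM129 with 1.55 at 100 nM.

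Expression was taken as FPKM, fragments scaled by transcript length and library size, a unit inferred from the processing notes. The libraries read the 3′ ends of transcripts. Over 44 ERCC spike-ins (added control RNAs) the libraries deviated by -0.0783 to 0.0729 in log2, while their median FPKM ran from 0.163 to 0.312. Whether the deposited values had already been scaled on the spike-ins was not tested. Changes are differences of log2(FPKM + 1) with their standard error (SE), a scale that understates the change of a gene near 0 and on which the sizes depend on the number added. With 0.1 added the KRCC1 change in XG1 at 100 nM was 3.84 and with 5 added 1.42, beside 2.77 as reported. The deposited values hold no read counts, so the depth of each library is unknown and no counting error can be given. In bulk RNA, more RNA per cell and more cells that express a gene cannot be told apart. Between 9284 and 10571 genes reached 1 FPKM in a library, and the lowest number was that of XG1 1000 nM replicate 2. Genes without signal sat at a floor that differed by library, from 0.0745 to 0.133 FPKM. Over all 12204 genes tested the median change was -0.01 in XG1 and -0.09 in AMO1 at 100 nM, and -0.19 and -0.18 at 1000 nM.

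Plasma cell markers were low under the label XG1. JCHAIN, which links secreted antibodies, was at 2.44 to 8.09 FPKM there and at 1016 to 1351 FPKM in AMO1, and IRF4, the regulator of plasma cell identity, was at 0.1004 to 0.341 FPKM against 18.6 to 34.2 FPKM. Of 9 plasma cell markers measured, 1 reached 10 FPKM in all 9 XG1 libraries and 8 in all 9 AMO1 libraries. Of 10 erythroid markers, 9 reached 10 FPKM in all 9 XG1 libraries and 1 in all 9 AMO1 libraries, with GATA1 at 15.9 to 29.9 FPKM in XG1. The summed erythroid markers lay between 3596 and 4301 FPKM in XG1 and between 23.0 and 66.3 FPKM in AMO1. "XG1" below means the libraries labelled so. Comparisons within AMO1 share with them the estimate of spread and the set of genes tested, and for the 10 genes the values from the 9 AMO1 libraries alone are given where the call changes.

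The promoters of 9 of the 10 genes were found in RefSeq (GRCh38.p14, 250 bases before to 50 bases after the listed start). Shown are those of KRCC1, which had the largest rise, and of SMIM14, CCDC92 and UCN, whose treated libraries lay above their DMSO libraries in all 4 comparisons with a change past the threshold. In a line that chose a gene, groups apart and a passed threshold were conditions of the choice and no test. For SMIM14 this holds in both lines. Capitals mark any of 7 motifs searched on both strands. The intervals are chr2:88055734-88056033 (KRCC1), chr4:39638816-39639115 (SMIM14), chr12:123972782-123973081 (CCDC92) and chr2:27308396-27308695 (UCN), all on the minus strand and printed 5′ to 3′ along the gene.
KRCC1: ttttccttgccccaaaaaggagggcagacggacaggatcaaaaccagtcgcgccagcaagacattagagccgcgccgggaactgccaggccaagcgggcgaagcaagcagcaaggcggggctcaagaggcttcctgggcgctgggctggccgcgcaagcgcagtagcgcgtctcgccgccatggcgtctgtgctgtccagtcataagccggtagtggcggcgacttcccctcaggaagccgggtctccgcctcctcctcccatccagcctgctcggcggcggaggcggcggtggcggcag
SMIM14: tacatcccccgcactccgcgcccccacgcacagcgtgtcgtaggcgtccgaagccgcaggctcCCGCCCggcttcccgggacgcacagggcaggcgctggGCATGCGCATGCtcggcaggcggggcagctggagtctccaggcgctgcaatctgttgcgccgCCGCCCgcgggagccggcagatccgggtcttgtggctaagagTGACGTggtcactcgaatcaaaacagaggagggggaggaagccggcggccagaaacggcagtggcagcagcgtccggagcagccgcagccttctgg
CCDC92: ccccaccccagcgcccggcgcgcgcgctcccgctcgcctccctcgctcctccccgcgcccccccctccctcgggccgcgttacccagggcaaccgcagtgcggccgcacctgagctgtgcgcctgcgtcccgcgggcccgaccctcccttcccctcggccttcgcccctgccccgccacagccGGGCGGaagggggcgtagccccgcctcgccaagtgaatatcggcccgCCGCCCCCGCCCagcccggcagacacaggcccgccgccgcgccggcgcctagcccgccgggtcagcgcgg
UCN: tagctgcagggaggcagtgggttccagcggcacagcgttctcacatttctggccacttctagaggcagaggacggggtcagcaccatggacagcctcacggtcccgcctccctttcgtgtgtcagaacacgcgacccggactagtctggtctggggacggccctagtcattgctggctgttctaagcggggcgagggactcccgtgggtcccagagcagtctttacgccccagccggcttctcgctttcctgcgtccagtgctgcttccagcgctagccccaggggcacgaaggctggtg
In SMIM14 the capitals are 2 GC boxes, a pair of overlapping NRF1 core sites and a cAMP response core site, and in CCDC92 they are 3 GC boxes, of which 2 adjoin. KRCC1 and UCN held none of the 7 motifs in these windows.

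Over all 9 promoters no motif was shared by every gene. The GC box (GGGCGG) was in 6 of 9, beside 76.7% of the 8917 tested genes with a promoter, and the CCAAT box (CCAAT) was in NRN1L, MEIG1 and ZNF580, beside 43.5%. The NRF1 core site (GCATGCGC) was in SMIM14 and MEIG1, beside 6.61%. HCG17 alone held an E box (CACGTG, 13.1% of genes), SMIM14 alone a cAMP response core site (TGACGT, 14.5%) and ZNF580 alone an ETS core (CCGGAA, 35.8%), while the TATA box (TATAAA, 7.93%) was in 0 of 9. GC content ranged from 52.3% in HCG17 to 81.0% in CCDC92, and 5 of 9 lay above the median of 65.3%. By the longest GENCODE transcript, 8 of the 10 genes were shorter than the median of 3385.5 bases, from 625 bases for MEIG1, and SMIM14 was the longest with 6483 bases.

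**Figure D1:**
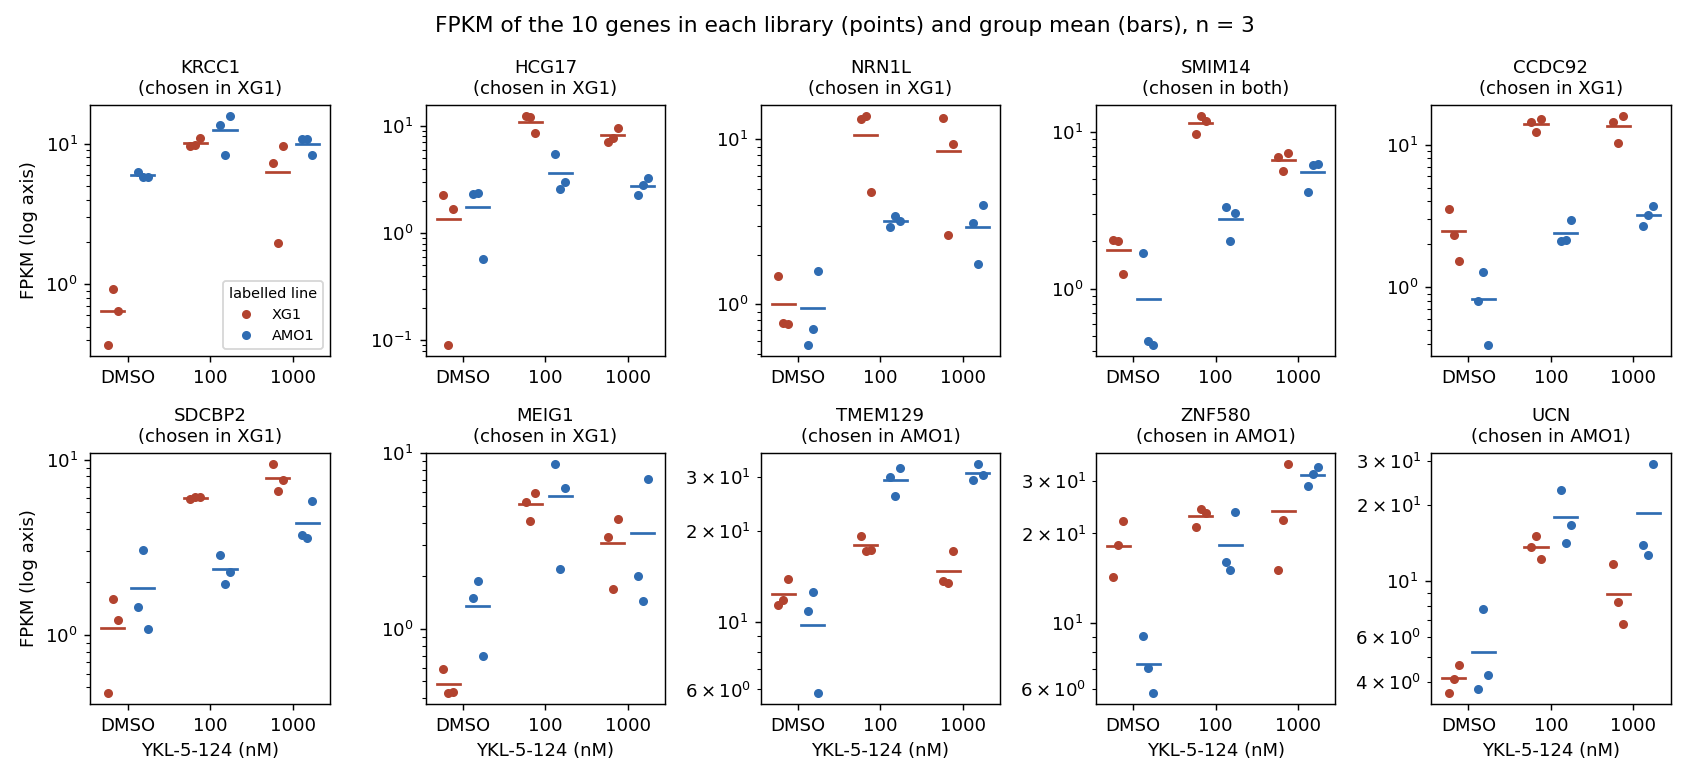
FPKM of each of the 10 genes (log axis) in every library, by dose of YKL-5-124 and labelled line, with points for libraries and bars for the means of 3. KRCC1 rises from below 1 FPKM in the XG1 DMSO libraries to 9.60 FPKM and above at 100 nM, while ZNF580 overlaps between the XG1 groups and separates between the AMO1 groups.

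Among the secreted and membrane-tethered proteins, UCN (urocortin, a peptide of the corticotropin-releasing hormone family) was higher with both doses in both lines. In AMO1, which chose it, the DMSO libraries held 3.75, 7.75 and 4.25 FPKM, the 100 nM libraries 23.0, 14.1 and 16.6 FPKM, and the 1000 nM libraries 13.95, 12.6 and 29.02 FPKM. In XG1 the DMSO libraries held 3.61, 4.10 and 4.65 FPKM, the 100 nM libraries 13.7, 15.1 and 12.3 FPKM, and the 1000 nM libraries 11.7, 8.24 and 6.78 FPKM. All treated libraries lay above all DMSO libraries in both lines, and in XG1 the 1000 nM libraries lay below the 100 nM libraries. The change in XG1, a line that did not choose the gene, was 1.52 ± 0.28 (SE) at 100 nM and 0.93 ± 0.28 at 1000 nM, with adjusted p = 0.00235 and 0.0263 in limma. The call at 100 nM held under every alternative run. At 1000 nM it was lost without XG1 DMSO replicate 1 (adjusted p = 0.103 in limma) or 2 (0.0693) and without XG1 1000 nM replicate 1 (0.111) or 2 (0.0688), with no filter on low values (0.0730), with a pseudocount of 5 (0.0577) and with a replicate block (0.0592). In AMO1 the change was 1.63 ± 0.28 at 100 nM and 1.60 ± 0.28 at 1000 nM. Its relatives UCN2, UCN3 and CRH, its receptors CRHR1 and CRHR2, and CRHBP, the protein that binds these peptides, were each under 1 FPKM in every library.

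NRN1L, a relative of the neurite-promoting protein neuritin, was chosen in XG1. Its XG1 libraries held 1.49, 0.772 and 0.763 FPKM in DMSO, 13.3, 13.8 and 4.82 FPKM at 100 nM, and 13.5, 2.63 and 9.37 FPKM at 1000 nM. One library of each treated group was low, replicate 3 at 100 nM and replicate 2 at 1000 nM, but both were above DMSO. The change was 2.43 ± 0.44 and 2.04 ± 0.44, and at 1000 nM it was 2.63 without replicate 2. AMO1 held 0.568, 0.710 and 1.58 FPKM in DMSO, 2.95, 3.41 and 3.19 FPKM at 100 nM, and 3.09, 1.76 and 4.02 FPKM at 1000 nM. These groups did not overlap either, though 1.76 and 1.58 FPKM are close. The AMO1 changes of 1.13 ± 0.44 and 1.01 ± 0.44 did not pass the threshold (adjusted p = 0.227 and 0.140 in limma). At 1000 nM the change passed in the 9 AMO1 libraries alone (adjusted p = 0.0195 in limma), in the 6 libraries compared (0.0482), after centring each library on its median (0.0360) and in a fit without XG1 1000 nM replicate 2 (0.0323). NRN1 itself, the gene of neuritin, was under 1 FPKM in every library.

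SMIM14, a small integral membrane protein, was the gene chosen in both lines, and at the 2 doses its order differed between them. XG1 held 2.03, 2.001 and 1.25 FPKM in DMSO, 9.65, 12.5 and 11.7 FPKM at 100 nM, and 6.86, 5.60 and 7.33 FPKM at 1000 nM. In AMO1 it held 1.69, 0.464 and 0.440 FPKM in DMSO, 3.32, 2.01 and 3.01 FPKM at 100 nM, and 4.12, 6.11 and 6.24 FPKM at 1000 nM. The 100 nM libraries were all above the 1000 nM libraries in XG1 and all below them in AMO1. Its change was 2.16 ± 0.23 and 1.47 ± 0.23 in XG1 and 1.07 ± 0.23 and 1.85 ± 0.23 in AMO1.

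TMEM129, a ubiquitin ligase of the endoplasmic reticulum that takes part in the disposal of proteins from this compartment, was chosen in AMO1. There it held 10.9, 12.5 and 5.85 FPKM in DMSO, 30.1, 25.9 and 32.0 FPKM at 100 nM, and 29.3, 33.1 and 30.4 FPKM at 1000 nM, changes of 1.55 ± 0.20 and 1.63 ± 0.20. The doses overlapped, and DMSO replicate 3 stood below the other two, without which the changes were 1.25 and 1.33. XG1 held 11.4, 11.8 and 13.9 FPKM in DMSO, 19.2, 17.2 and 17.2 FPKM at 100 nM, and 13.6, 13.4 and 17.1 FPKM at 1000 nM. The XG1 groups were apart at 100 nM and overlapped at 1000 nM. Neither XG1 change, 0.50 ± 0.20 and 0.23 ± 0.20, passed the threshold (adjusted p = 0.144 and 0.464 in limma). With quantile normalization both did, at 0.65 and 0.56 (adjusted p = 0.0111 and 0.0188 in limma), and without AMO1 DMSO replicate 3 the change at 100 nM did (0.0220). Its partners in the same disposal route, DERL1, DERL2 and UBE2J2, and the related components VCP and SYVN1 passed the threshold in no comparison with DMSO.

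Of the cytoskeletal and scaffold proteins, CCDC92, a coiled-coil protein of centrioles and cilia, was higher in every treated group of both lines. In XG1, which chose it, the libraries held 3.54, 2.34 and 1.52 FPKM in DMSO, 14.5, 12.3 and 15.1 FPKM at 100 nM, and 14.3, 10.2 and 15.8 FPKM at 1000 nM, changes of 2.15 ± 0.23 and 2.08 ± 0.23. AMO1 held 0.800, 1.28 and 0.395 FPKM in DMSO, 2.11, 2.14 and 2.98 FPKM at 100 nM, and 2.69, 3.22 and 3.72 FPKM at 1000 nM. No treated library was as low as any DMSO library of its line. In AMO1 the gene rose by 0.92 ± 0.23 at 100 nM and by 1.23 ± 0.23 at 1000 nM (adjusted p = 0.0356 and 0.00107 in limma). The call at 1000 nM held under every alternative run. At 100 nM it was lost without AMO1 DMSO replicate 1 (adjusted p = 0.110 in limma) or 3 (0.0659), without AMO1 100 nM replicate 1, 2 or 3 (0.0781, 0.0848 and 0.120), in the 9 AMO1 libraries alone (0.0572) or the 6 compared (0.152), with a pseudocount of 5 (0.138), with no filter (0.0824) and with a replicate block (0.0772). CEP164, a protein of centriole appendages, fell in AMO1 at 1000 nM by 0.75 ± 0.20 (adjusted p = 0.0126 in limma), from 11.7, 13.4 and 11.7 FPKM to 6.83, 7.58 and 6.24 FPKM, and passed in no other comparison with DMSO. That call was lost without AMO1 DMSO replicate 2 (adjusted p = 0.0594 in limma) and with quantile normalization (0.0689).

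SDCBP2, or syntenin-2, a PDZ scaffold that binds membrane receptors and lipids, was chosen in XG1. The XG1 libraries held 0.466, 1.60 and 1.21 FPKM in DMSO, 5.91, 6.11 and 6.15 FPKM at 100 nM, and 9.41, 6.59 and 7.60 FPKM at 1000 nM. It was the only one of the 10 genes whose 1000 nM libraries all lay above the 100 nM libraries in both lines, and its XG1 change was 1.79 ± 0.24 and 2.11 ± 0.24. In AMO1 it held 1.45, 3.03 and 1.08 FPKM in DMSO, 2.85, 1.96 and 2.28 FPKM at 100 nM, and 3.70, 3.55 and 5.83 FPKM at 1000 nM. DMSO replicate 2 lay above the whole 100 nM group. The AMO1 change at 100 nM was 0.29 ± 0.24 (adjusted p = 0.647 in limma), and it was 0.57 without DMSO replicate 2 and 0.089 without DMSO replicate 3. At 1000 nM the gene rose by 0.94 ± 0.24 (adjusted p = 0.0111 in limma), a call lost without AMO1 DMSO replicate 1 (0.0531) or AMO1 1000 nM replicate 3 (0.0645) and in the 6 libraries compared (0.0611). Its paralog SDCBP, syntenin-1, averaged 147 ± 14.1 FPKM (SD, n = 3) in XG1 DMSO and 12.8 ± 1.85 FPKM in AMO1 DMSO and passed the threshold in no comparison with DMSO.

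MEIG1, a protein of sperm formation, was chosen in XG1, where it held 0.591, 0.431 and 0.435 FPKM in DMSO, 5.26, 4.09 and 5.91 FPKM at 100 nM, and 3.33, 1.68 and 4.23 FPKM at 1000 nM. These are changes of 2.03 ± 0.43 and 1.40 ± 0.43. AMO1 held 1.49, 1.86 and 0.698 FPKM in DMSO, 8.63, 2.19 and 6.33 FPKM at 100 nM, and 2.003, 1.43 and 7.12 FPKM at 1000 nM. The treated AMO1 groups had the widest spread of the gene, with a 1000 nM library inside the DMSO range. The AMO1 changes of 1.41 ± 0.43 and 0.76 ± 0.43 did not pass (adjusted p = 0.107 and 0.262 in limma). At 100 nM the change was 1.87 without AMO1 100 nM replicate 2 and passed (adjusted p = 0.0379 in limma), as it did without AMO1 1000 nM replicate 3 (0.0334) and after centring each library on its median (0.0248) or with quantile normalization (0.0251). At 1000 nM it was 0.24 without AMO1 1000 nM replicate 3. SPAG16, a protein of the sperm tail, fell in XG1 at 1000 nM by 0.82 ± 0.18 (adjusted p = 0.00323 in limma).

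KRCC1 had the largest rise of the 10 genes. Its XG1 libraries held 0.372, 0.928 and 0.646 FPKM in DMSO, 9.60, 9.72 and 11.04 FPKM at 100 nM, and 7.24, 1.97 and 9.68 FPKM at 1000 nM. On the FPKM + 1 scale this is 6.80-fold at 100 nM, or 2.77 ± 0.33 in log2, and 1.97 ± 0.33 at 1000 nM, where it was 2.52 without XG1 1000 nM replicate 2. AMO1 started from a higher level, with 6.27, 5.79 and 5.78 FPKM in DMSO, and held 13.5, 8.31 and 15.7 FPKM at 100 nM and 10.8, 10.8 and 8.27 FPKM at 1000 nM. All AMO1 treated libraries lay above all DMSO libraries, and DMSO XG1 was below DMSO AMO1 by a log2 difference of -2.09 ± 0.33. The AMO1 changes of 0.92 ± 0.33 and 0.65 ± 0.33 did not pass (adjusted p = 0.164 and 0.200 in limma). Both passed after centring, at 1.09 and 0.94 (adjusted p = 0.0341 and 0.0276 in limma), and in a fit without XG1 1000 nM replicate 2 (0.0164 and 0.0280). At 1000 nM the change also passed with quantile normalization (0.0492) and in the 6 libraries compared (0.0314).

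ZNF580, a zinc finger protein, was chosen in AMO1 and was higher there with dose. It held 9.02, 7.07 and 5.83 FPKM in DMSO, 16.1, 15.1 and 23.5 FPKM at 100 nM, and 28.8, 31.8 and 33.4 FPKM at 1000 nM, changes of 1.20 ± 0.23 and 1.98 ± 0.23. XG1 held 14.3, 18.3 and 21.9 FPKM in DMSO, 21.0, 24.3 and 23.5 FPKM at 100 nM, and 15.0, 22.2 and 34.2 FPKM at 1000 nM. The 3 AMO1 groups followed each other without overlap, and the XG1 groups overlapped at both doses. The XG1 changes of 0.34 ± 0.23 and 0.32 ± 0.23 did not pass (adjusted p = 0.463 and 0.390 in limma), and the one at 1000 nM was 0.03 without XG1 1000 nM replicate 3.

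HCG17 held 2.27, 0.0911 and 1.70 FPKM in XG1 DMSO, 12.3, 12.1 and 8.49 FPKM at 100 nM, and 7.12, 7.74 and 9.65 FPKM at 1000 nM. DMSO replicate 2 was near the floor. The XG1 changes that chose the gene, 2.48 ± 0.36 and 2.10 ± 0.36, were 1.996 and 1.62 without that library. AMO1 held 2.29, 2.39 and 0.576 FPKM in DMSO, 5.41, 2.56 and 3.03 FPKM at 100 nM, and 2.28, 2.80 and 3.25 FPKM at 1000 nM. There the groups were apart at 100 nM and overlapped at 1000 nM. Neither AMO1 change, 0.79 ± 0.36 and 0.53 ± 0.36, passed (adjusted p = 0.295 and 0.355 in limma), and without AMO1 DMSO replicate 3 they were 0.43 and 0.17. Of 9 other HCG genes listed, only HCG11, HCG18, HCG25, HCG26 and HCG27 were tested. HCG4, HCG9 and HCG22 were under 1 FPKM in every library. HCG27 rose in XG1 at 100 nM by 0.85 ± 0.18 (adjusted p = 0.00754 in limma), and HCG18 fell in both lines at 1000 nM. HCG11 fell in XG1 at 1000 nM by 0.57 ± 0.19 (adjusted p = 0.0452 in limma). HCG25 and HCG26 passed in no comparison with DMSO. The HCG11 call was lost under most alternatives, with an adjusted p of up to 0.236 in limma, the value without XG1 1000 nM replicate 2.

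**Figure D2:**
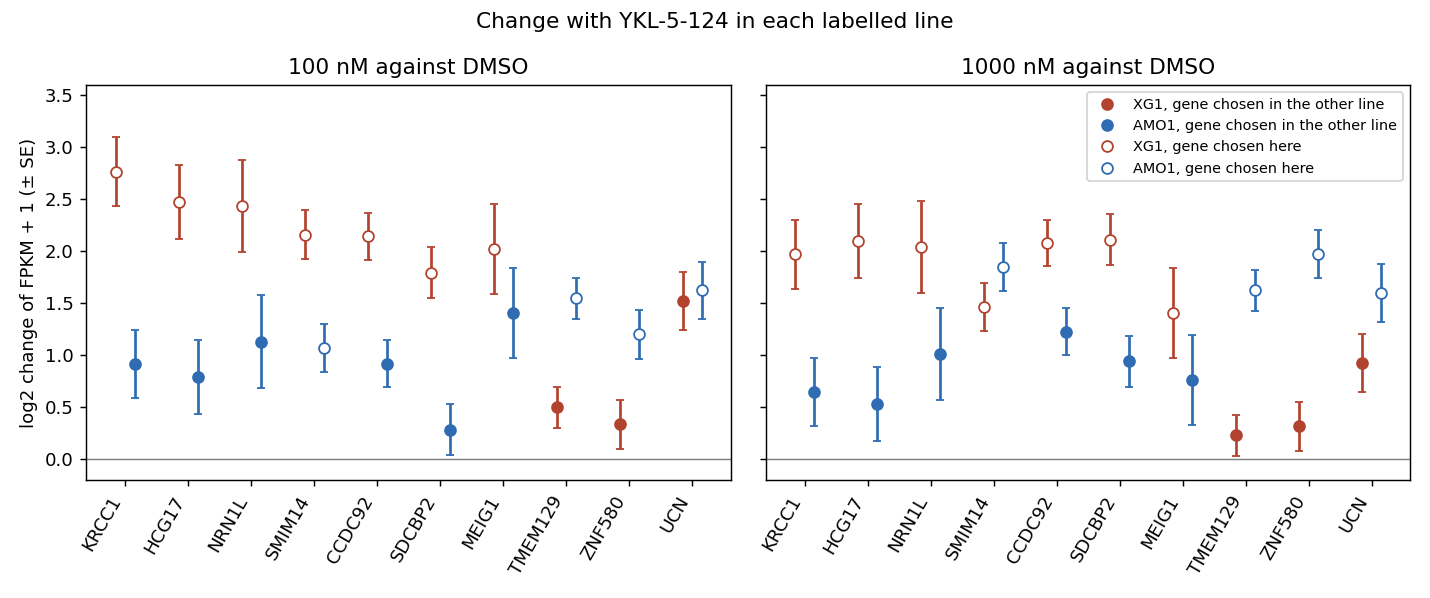
Change of each gene against DMSO as a difference of log2(FPKM + 1) with its SE, at 100 nM (left) and 1000 nM (right), where filled points mark a line that did not choose the gene and open points one that did. All 40 changes lie above 0, from 0.23 for TMEM129 in XG1 at 1000 nM to 2.77 for KRCC1 in XG1 at 100 nM. For the open points a rise was the ground of the choice.

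Read over the genes, a large rise in one line went with a smaller change of the same sign in the other, where the choice itself favours the line with the larger value. The 6 genes chosen in XG1 were all above 0 in AMO1, with a median change of 0.92 (0.29 to 1.41) at 100 nM and 0.85 (0.53 to 1.23) at 1000 nM. CCDC92 alone (1 of 6) passed the threshold at 100 nM, where 0.434% of all genes tested were called higher, and CCDC92 and SDCBP2 (2 of 6) passed at 1000 nM, where 1.78% were. All treated libraries lay above all DMSO libraries for 5 of 6 and 4 of 6, beside 4.40% and 4.44% of all genes. The 3 genes chosen in AMO1 were above 0 in XG1, with medians of 0.50 and 0.32. UCN alone (1 of 3) passed at 100 nM, where 2.63% of genes were called higher, and at 1000 nM, where 1.90% were. Their groups were apart for 2 of 3 at 100 nM and 1 of 3 at 1000 nM, beside 11.3% and 4.15%. The 2 doses share the DMSO libraries of their line, so their values are not independent. A change past the threshold in one line alone is not shown to differ between lines, and as the rule used these comparisons the difference was not tested. As XG1 minus AMO1, its size at 1000 nM was -1.66 ± 0.33 for ZNF580, -1.39 ± 0.28 for TMEM129 and -0.68 ± 0.39 for UCN. At 100 nM it was -0.87 ± 0.33, -1.05 ± 0.28 and -0.10 ± 0.39. For the 6 genes chosen in XG1 it ran from 0.62 (MEIG1) to 1.85 (KRCC1) at 100 nM and from 0.64 (MEIG1) to 1.57 (HCG17) at 1000 nM.

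By dose, the mean was higher at 100 than at 1000 nM for 8 of the 10 genes in XG1 and for 4 of 10 in AMO1. Over all genes tested the median change from 100 to 1000 nM was -0.18 in XG1 and -0.11 in AMO1. The share of all genes with each dose order was not computed. As the genes were chosen by their rises at these doses, their dose order is a description only. In XG1 the 1000 nM libraries lay wholly below the 100 nM libraries for SMIM14, TMEM129 and UCN, wholly above them for SDCBP2, and overlapped for the other 6. In AMO1 they lay wholly above for SMIM14, SDCBP2 and ZNF580 and overlapped for the other 7. Single libraries stood out over several genes. XG1 1000 nM replicate 2, the library with the fewest genes at 1 FPKM, was the lowest of its group for 7 of 10 genes, AMO1 DMSO replicate 3 for 8, and AMO1 100 nM replicate 2 for 8, while AMO1 1000 nM replicate 3 was the highest for 8. Over all genes measured, the low libraries also had the lowest median FPKM of their groups (0.163, 0.174 and 0.200). The high library had the highest (0.264). The share of all genes lowest or highest in each library was not computed. The part of these libraries in the dose order was not tested.

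Neighbouring genes were read because transcripts that run on or overlap can share reads, and no source used here says whether the authors counted by strand. RefSeq listed 34 genes that overlapped or lay next to the 10, of which 16 were tested. At 100 nM, 2 were called higher and 0 lower in XG1, and 1 higher and 0 lower in AMO1, beside 6.61% and 2.20% of all genes called in either direction. With unadjusted p-values in limma, 1 would be lower in XG1 and 2 in AMO1 at that dose. At 1000 nM, 2 were higher and 3 lower in XG1, and 2 higher and 5 lower in AMO1, beside 17.6% and 17.1%. DNAH10, which overlaps CCDC92, TRIM54, which overlaps UCN, and FKBP1A-SDCBP2, a readthrough locus over SDCBP2, were each under 1 FPKM in every library.

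PSKH1, a serine kinase gene beside NRN1L on the same strand, rose in all 4 comparisons. It held 8.03, 10.7 and 8.84 FPKM in XG1 DMSO, 27.7, 20.2 and 21.9 FPKM at 100 nM, and 20.7, 21.6 and 15.7 FPKM at 1000 nM. In AMO1 it held 21.4, 21.1 and 10.2 FPKM in DMSO, 38.3, 32.4 and 40.2 FPKM at 100 nM, and 32.5, 33.3 and 37.4 FPKM at 1000 nM. No treated library reached down to a DMSO library in either line. The changes were 1.25 ± 0.22 and 1.00 ± 0.22 in XG1 (adjusted p = 0.00154 and 0.00387 in limma) and 1.10 ± 0.22 and 1.00 ± 0.22 in AMO1 (adjusted p = 0.0104 and 0.00388 in limma), and in the 9 AMO1 libraries alone the call at 100 nM was lost (0.0609). In the 6 libraries compared both AMO1 calls were lost (0.169 and 0.0514). EDC4, a decapping scaffold on the other side of NRN1L, passed in no comparison with DMSO.

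SDCBP2-AS1, which overlaps SDCBP2 on the opposite strand, rose in 3 of the 4 comparisons. Its XG1 libraries held 0.310, 0.510 and 0.506 FPKM in DMSO, 2.39, 1.49 and 2.31 FPKM at 100 nM, and 0.960, 1.41 and 1.43 FPKM at 1000 nM. At 100 nM in XG1 the change was 1.08 ± 0.22 and at 1000 nM 0.65 ± 0.22 (adjusted p = 0.00481 and 0.0429 in limma). AMO1 held 5.58, 5.82 and 3.21 FPKM in DMSO and 6.82, 7.42 and 11.4 FPKM at 1000 nM, a rise of 0.70 ± 0.22 (adjusted p = 0.0298 in limma) that did not pass in the 9 AMO1 libraries alone (0.0647). At 100 nM in AMO1 the change was 0.56 ± 0.22 (adjusted p = 0.194 in limma). Both calls at 1000 nM were lost with several libraries left out, XG1 without each DMSO library (adjusted p up to 0.152 in limma), 1000 nM replicate 2 or 3, AMO1 100 nM replicate 1 or AMO1 1000 nM replicate 2, and AMO1 without its DMSO replicate 3 or its 1000 nM replicates 2 and 3 in turn (0.152 at most). They were also lost with a replicate block (0.0915 in XG1, 0.0694 in AMO1) and with no filter (0.0935 and 0.0655), the XG1 call with a pseudocount of 5 (0.291), and the AMO1 call with a pseudocount of 0.1 (0.0690) and in the 6 libraries compared (0.103). The XG1 call at 100 nM was lost with a pseudocount of 5 (0.0706). In XG1 the antisense gene had its highest values at 100 nM and SDCBP2 at 1000 nM. Reads of the pair cannot be told apart if counting ignored strand, so both are uncertain.

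Beside other genes of the 10 the neighbours moved the other way or did not pass. HCG18, which overlaps HCG17 on the same strand, held 3.46, 3.20 and 3.26 FPKM in XG1 DMSO and 1.27, 0.933 and 1.27 FPKM at 1000 nM, a fall of 1.00 ± 0.16 in log2 (adjusted p = 3.13e-04 in limma). In AMO1 it was at 2.53, 2.77 and 2.11 FPKM in DMSO and 0.744, 0.925 and 1.07 FPKM at 1000 nM, a log2 change of -0.86 ± 0.16 (adjusted p = 0.00114 in limma). At the same dose HCG17 had changes of 2.10 in XG1 and 0.53 in AMO1, of which the AMO1 change did not pass. SLBP, the histone mRNA binding protein beside TMEM129, fell at 1000 nM by 1.02 ± 0.23 in XG1 and by 0.81 ± 0.23 in AMO1 (adjusted p = 0.00480 and 0.0202 in limma). TACC3, a spindle protein that overlaps TMEM129 on the opposite strand, fell by 0.64 ± 0.14 and 0.45 ± 0.14 (adjusted p = 0.00388 and 0.0322 in limma). In AMO1 at 1000 nM, UGDH beside SMIM14 fell by 0.51 ± 0.16 and ZNF581, which overlaps ZNF580 on the same strand, by 0.55 ± 0.15 (adjusted p = 0.0371 and 0.0170 in limma). For HCG17 with HCG18 and ZNF580 with ZNF581, counting by strand would not separate reads from a stretch that both genes share. Whether such reads affect their values was not tested. After centring on the library median the calls of ZNF581 (adjusted p = 0.251 in limma), UGDH (0.236) and TACC3 (0.0987 in XG1, 0.496 in AMO1) were lost. Quantile normalization ended the same calls (0.0620, 0.274, 0.0560 and 0.309) and the AMO1 call of SLBP (0.0508). In AMO1 the calls of SLBP, TACC3 and UGDH were lost with no filter (0.0553, 0.0514 and 0.0545), those of TACC3 and UGDH with a replicate block (0.0607 and 0.0858), those of TACC3, UGDH and ZNF581 in the 6 libraries compared (0.105, 0.0626 and 0.0896), and that of TACC3 in the 9 AMO1 libraries alone (0.0528). The AMO1 calls of these 3 genes and of SLBP were also lost without AMO1 DMSO replicate 1 or AMO1 1000 nM replicate 1, those of UGDH, ZNF581 and TACC3 without AMO1 DMSO replicate 2, those of SLBP, UGDH and ZNF581 without AMO1 1000 nM replicate 2, and those of UGDH and TACC3 without AMO1 1000 nM replicate 3.

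**Figure D3:**
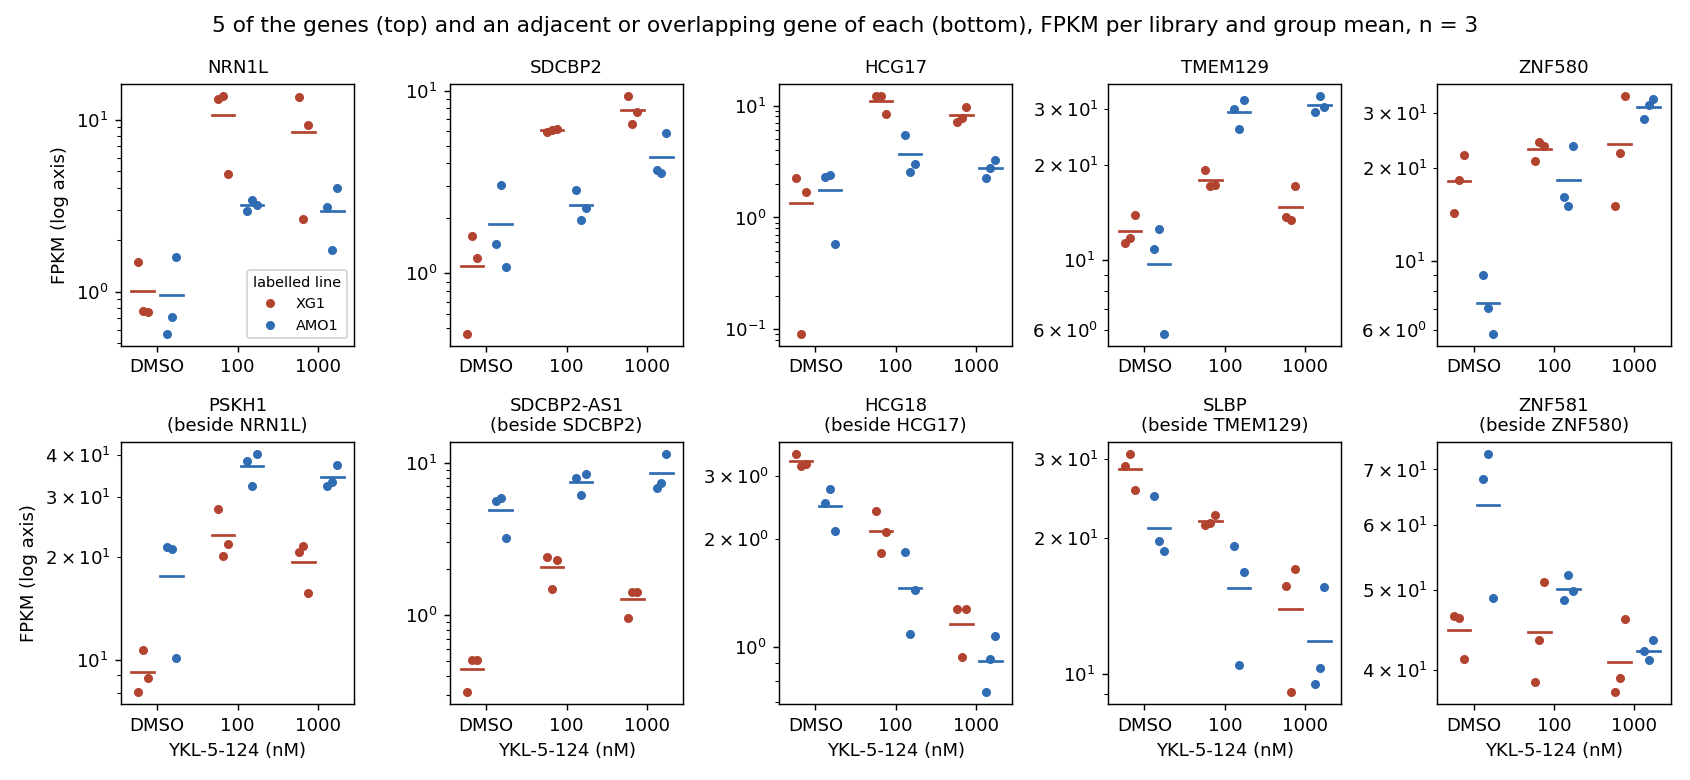
FPKM (log axis) of 5 of the genes (top row) and of an adjacent or overlapping gene of each (bottom row) in every library, by dose and labelled line, with bars for the means of 3. PSKH1 and SDCBP2-AS1 are higher with treatment, as are NRN1L and SDCBP2 above them, while HCG18 and SLBP are lowest at 1000 nM.

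The relatives and partners listed for single members were 30 genes, of which 16 were tested. In XG1, 2 were higher and 0 lower at 100 nM, where 6.61% of all genes were called in either direction, and 1 was higher and 3 lower at 1000 nM, where 17.6% were. In AMO1, 0 passed at 100 nM (1 higher and 2 lower by unadjusted p in limma), and 1 was higher and 3 lower at 1000 nM, beside 2.20% and 17.1% of all genes. SDCBP2-AS1 was the gene called higher at 1000 nM in either line. The medians of the tested relatives were 0.04 and -0.19 in XG1 and -0.15 and -0.29 in AMO1, beside -0.01, -0.19, -0.09 and -0.18 for all genes.

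Across the 18 libraries, with values centred within each line, each gene chosen in XG1 correlated with the mean of the other 5 at Pearson's r of 0.837 (SDCBP2) to 0.936 (CCDC92). The genes chosen in AMO1 did so at 0.741 (UCN) to 0.925 (TMEM129). These are descriptions over libraries that share dose groups. The genes were chosen for rises between these same libraries, so high values of r follow in part from the choice. The genes most like the mean of the XG1-chosen genes were NMNAT1 (0.949), FBXO10 (0.947), TERF2 (0.943), OPN3 (0.943) and LMBRD2 (0.935). Most like the AMO1-chosen mean were HIST2H2BE (0.978), PRDM2 (0.946), POLR2A (0.946), GDF15 (0.938) and STARD7-AS1 (0.930). Of these, HIST2H2BE, GDF15 and POLR2A held ranks 1, 2 and 3 among the rises in AMO1 at 100 nM. NMNAT1 makes NAD in the nucleus, TERF2 binds telomeres, POLR2A is the largest subunit of RNA polymerase II, and GDF15 is a stress-induced secreted factor.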

How the data were processed

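RNA was measured in 18 libraries with QuantSeq 3′-end libraries from cells grown in multiwell plates and lysed in TRIzol, per the labels' protocols. The authors used HISAT2, Cuffnorm and the build hg19, per the submitters' processing notes. Neither versions, annotation nor strand of counting is given in the sources used here. Expression as deposited is taken as FPKM from the name of Cuffnorm, since the file headers say only expression. Because 3′-end reads do not scale with transcript length, as FPKM assumes, each test compares a gene with itself. The marker sums, the FPKM cut-offs and the ranking by change do set genes side by side. They can depend on transcript length, the ranking through the number added before the log. The size of that dependence was not tested. Depth is unknown and limits precision to the spread of 3 libraries.

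Groups came from the labels. Values were tested as log2(FPKM + 1) with limma 3.58.1 (R 4.3.3, statmod 1.5.0), trend and robust, two-sided, in 1 fit of the 18 libraries. P-values were adjusted by Benjamini-Hochberg over the 12204 genes whose mean reached 1 FPKM in any group, with a threshold of 0.05. A gene was assigned to the line in which it was among the 10 largest rises at either dose (called, groups apart, small RNA and uncharacterised loci left out). Named besides the 10 are their neighbours, listed relatives, the 3 largest rises per line outside the choice and the 5 most similar genes per line. The genes and lists were chosen with earlier results of these data known. Neighbours and promoters came from RefSeq tables of GRCh38.p14, used for names and promoters only, and strands and transcript lengths from GENCODE, matched by symbol for 11478 tested genes. TMEM129 had no promoter entry. Alternatives were the pseudocount (0.1 or 5), the filter (none or 5 FPKM), the scaling (library median, quantile, ERCC spike-ins), the libraries fitted, limma without trend and robust estimation, a replicate block and each library left out. Some results for listed relatives are not reported here.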

Additional observations from a re-analysis of the deposited data

Results flagged for a closer look

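HCG27, a noncoding HLA complex gene listed as a relative of HCG17, differed between the lines in its response to 100 nM. In XG1 it averaged 0.486 ± 0.251 FPKM (SD, n = 3) in DMSO and 1.65 ± 0.140 FPKM at 100 nM, and in AMO1 0.957 ± 0.140 and 0.338 ± 0.0833 FPKM. The difference of the changes was 1.40 ± 0.26 (SE) in log2 (adjusted p = 0.0310 in limma), with 3 of 3 treated libraries above DMSO in XG1 and 3 of 3 below in AMO1. The AMO1 change alone, -0.55 ± 0.18, did not pass (adjusted p = 0.122 in limma). At 1000 nM the difference was 0.57 ± 0.26 and did not pass (adjusted p = 0.441 in limma). At that dose the change was 0.06 ± 0.18 in XG1, with overlapping groups, and -0.51 ± 0.18 in AMO1. All values were under 2 FPKM, the DMSO libraries of the lines did not overlap, and the cause was not tested. The difference between the lines was fitted in the main run only, so its dependence on the processing was not examined.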

How the results depend on the processing

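All 40 changes of the 10 genes stayed above 0 under all 29 alternatives, 18 of which left out 1 library. In a line that chose a gene its rise was the ground of the choice, so its sign there is a description only. The sizes of the changes moved with the pseudocount: the medians over the 10 genes, 2.09 and 1.72 in XG1 and 1.10 and 1.12 in AMO1, were 1.15, 0.86, 0.56 and 0.47 with 5 and 2.58, 2.41, 1.59 and 1.65 with 0.1. These medians mix choosing and other lines, and more of the 10 genes were chosen in XG1. Of 47 tested values of single genes, 21 stayed on their side of the threshold throughout and 2 changed sign. TACC3 in AMO1 at 100 nM went to 0.11 with centring and 0.010 with quantile normalization, and HCG27 in XG1 at 1000 nM ranged from -0.061 to 0.20 with 1 library left out. The causes were not tested.

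Genes called in XG1 at 100 nM were 807, against 1499 with centring, 1878 with quantile normalization and 396 to 1189 with 1 library left out. At 1000 nM they were 2152, against 1197 in the 6 libraries compared and 1108 to 2645. In AMO1 at 100 nM they were 268, against 137 and 453 with pseudocounts of 0.1 and 5, 477 with centring, 459 with quantile normalization, 131 in the line's 9 libraries, 6 in the 6 compared and 100 to 942 (942 without AMO1 DMSO replicate 3, 100 without AMO1 100 nM replicate 2). At 1000 nM they were 2091, with 1187 to 3031. Centring moved the split of higher and lower calls at 1000 nM from 232 and 1920 to 969 and 969 in XG1 and from 217 and 1874 to 1012 and 815 in AMO1, and at 100 nM in AMO1 from 53 and 215 to 289 and 188. With quantile normalization the splits were 892 and 986 in XG1 at 100 nM, where the main one was 321 and 486, 1174 and 1209 at 1000 nM, and 205 and 254 and 861 and 1011 in AMO1. Centring gives every library the same median, and quantile normalization the same distribution. Scaling on the ERCC spike-ins gave 233 and 1802 in XG1 and 211 and 1884 in AMO1 at 1000 nM, near the main splits. Which scaling suits these libraries was not tested.

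Of the 6 genes chosen in XG1, those called higher in AMO1 at 100 nM (1) became 0 with a pseudocount of 5, with no filter, in the line's 9 and in the 6 compared libraries, 3 with centring, 2 with quantile normalization and 0 to 2 with 1 library left out. At 1000 nM (2) they became 4 with centring and 1 to 4. Of the 3 genes chosen in AMO1, those called in XG1 at 100 nM (1) became 2 with quantile normalization, with 1 to 2, and at 1000 nM (1) 0 with a pseudocount of 5 or no filter, 2 with quantile normalization and 0 to 1. Neighbours called in AMO1 at 100 nM (1) became 0 in the line's 9 or the 6 compared libraries, with 1 to 4. At 1000 nM (7) they became 3 with no filter, 4 with centring, 3 with quantile normalization, 3 in the 6 compared and 3 to 8. In XG1 they were 2 to 2 and 4 to 5.

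The values showed no pairing of samples by replicate number, and the labels do not state one. A low correlation cannot show that same-numbered libraries were prepared apart. Same-numbered libraries of a line deviated together at r of -0.125 to 0.0926 over 18 pairs, and 4 libraries correlated best with their own number. With the replicate block 486 genes were called in XG1 and 123 in AMO1 at 100 nM, 0 of the XG1-chosen genes in AMO1 at 100 nM, 0 of the AMO1-chosen in XG1 at 1000 nM and 4 neighbours in AMO1 at 1000 nM. A minimum of 5 FPKM gave no value for HCG18 and HCG27. Without counts, no limit of detection could be set.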
